A study of Mus musculus with 4 samples.

Results

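The transcripts followed here are 7 genes by which mast cells are recognised in mouse connective tissue, namely Cma1, Mcpt4, Tpsb2, Cpa3, Kit, Ms4a2 and Fcer1a. They were found by symbol among the 32285 genes listed for each section, and all 7 were present. The study measured gene expression across tissue sections with 10x Visium, a slide-based assay whose barcoded spots capture the transcripts of the tissue above them, counted as unique molecular identifiers (UMIs). The groups were oral mucosa at postoperative day 4, unwounded oral mucosa, facial skin at postoperative day 4 and unwounded facial skin, each from flash-frozen tissue of wildtype mice and each with 1 section. The labels give no strain, age or sex, and they do not say which mouse a section came from or where in it the wound lies. With 1 section per group there is no replicate and no test, so every 95% interval below covers counting error only and every comparison is between single sections. Each spot takes in a patch of tissue and so may mix cells of several kinds.

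Mast cells are long-lived tissue immune cells that settle in connective tissue near vessels, nerves and epithelia. They mature under stem cell factor acting on the receptor tyrosine kinase Kit, and they store proteases bound to heparin in granules that are released when the high-affinity IgE receptor is crosslinked. Connective tissue mast cells of the mouse carry the chymases encoded by Cma1 (mouse mast cell protease 5) and Mcpt4, the tryptase encoded by Tpsb2 (mouse mast cell protease 6) and carboxypeptidase A3, encoded by Cpa3, whereas mucosal mast cells are known for Mcpt1 and Mcpt2. Ms4a2 and Fcer1a encode the beta and alpha chains of the IgE receptor.

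In the RefSeq annotation of GRCm38.p6, Cma1 lies at chr14:55941451-55944675 and Mcpt4 at chr14:56059744-56062310, in the same chymase locus. Tpsb2 lies at chr17:25366308-25368096, Cpa3 at chr3:20215616-20242209, Kit at chr5:75574987-75656722, Ms4a2 at chr19:11615517-11623790 and Fcer1a at chr1:173221269-173227232, and all 7 are protein-coding. The 250 bases ahead of a RefSeq transcript start are printed for the 3 granule proteases that had most UMIs among the 6 genes with a promoter entry, because these 3 varied together across spots. The sequences run 5′ to 3′ on the gene's own strand, which is the minus strand for all 3, and capitals mark each match to GATAA or its reverse complement TTATC, the core recognised by GATA factors. They cover chr14:55944676-55944925, chr14:56062311-56062560 and chr3:20242182-20242431.
Cma1: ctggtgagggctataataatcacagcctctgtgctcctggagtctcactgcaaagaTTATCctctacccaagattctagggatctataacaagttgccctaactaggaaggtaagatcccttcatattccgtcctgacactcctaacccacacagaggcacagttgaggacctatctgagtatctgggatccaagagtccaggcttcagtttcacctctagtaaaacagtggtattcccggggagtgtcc
Mcpt4: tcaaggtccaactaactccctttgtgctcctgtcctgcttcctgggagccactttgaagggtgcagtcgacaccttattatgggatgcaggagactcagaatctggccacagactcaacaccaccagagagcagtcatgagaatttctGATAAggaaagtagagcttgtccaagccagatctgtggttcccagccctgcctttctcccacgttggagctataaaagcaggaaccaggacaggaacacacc
Cpa3: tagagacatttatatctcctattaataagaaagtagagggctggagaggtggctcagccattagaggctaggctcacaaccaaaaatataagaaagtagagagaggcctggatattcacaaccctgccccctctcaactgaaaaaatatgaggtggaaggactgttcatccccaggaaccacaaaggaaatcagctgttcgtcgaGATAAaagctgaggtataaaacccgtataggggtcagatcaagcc
Each of these windows held 1 match. Searched on both strands, 22.6% of the 32851 RefSeq windows of the same length held at least 1. Among the other members with an entry, Ms4a2 held 3 matches, Fcer1a 1 and Kit none. CATGTG, or CACATG on the other strand, an E-box of the kind bound by Mitf, was found in 12.3% of all windows and among the members in Fcer1a alone.

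The sections differed in ways that touch every value below. They held 430 spots and 3004174 UMIs in day 4 oral mucosa, 1288 spots and 7285023 UMIs in unwounded oral mucosa, 1141 spots and 9934290 UMIs in facial skin at day 4 and 671 spots and 11939479 UMIs in unwounded facial skin. As many as 652 spots of unwounded oral mucosa held under 100 UMIs each, and mitochondrial genes took 20.8% of that section's UMIs, against 2.71% to 11.9% in the others. Skeletal muscle markers took 4.29% and 5.08% of UMIs in the day 4 and unwounded oral sections, against 0.0947% and 0.116% in the day 4 and unwounded facial sections. Neutrophil markers were more frequent in the facial section labelled unwounded than in the wounded one: they took 0.0256% of UMIs in the day 4 facial section, against 0.637% in the unwounded one, while the oral sections had 0.394% at day 4 and 0.00328% unwounded. Xist was counted in the day 4 sections (84 UMIs in oral mucosa and 909 in facial skin), against 0 and 1 in the unwounded ones. The Y-linked genes Ddx3y and Eif2s3y had no UMI in the day 4 sections, against 247 to 857 UMIs each in the unwounded ones. Read by these genes, the day 4 and unwounded sections differ in sex, so wounding and sex cannot be told apart in any ratio between them. Whether any section labels were exchanged was not tested. The facial ratios below follow the labels, and an exchange of the 2 facial sections would turn their sign.

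The 7 genes were more frequent in both day 4 sections than in the unwounded sections. Their summed UMIs came to 558 in day 4 oral mucosa, 363 in unwounded oral mucosa, 1764 in facial skin at day 4 and 1000 in unwounded facial skin. Per 1000000 UMIs of the section (CPM) the sums were 185.7 (170.6 to 201.8), 49.8 (44.8 to 55.2), 177.6 (169.4 to 186.1) and 83.8 (78.6 to 89.1), in the same order. The intervals of the day 4 and unwounded sections did not overlap, and those of the 2 day 4 sections did. In such sections fewer mast cells and less of the transcript per mast cell cannot be told apart.

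Cma1, a chymase gene that mast cells express at high level, gave the most UMIs of the 7 at day 4. It stood at 76.2 CPM (229 UMIs) in day 4 oral mucosa, 15.9 (116) in unwounded oral mucosa, 61.9 (615) in facial skin at day 4 and 24.1 (288) in unwounded facial skin. Mcpt4, the chymase regarded as the functional counterpart of human chymase, stood at 42.6 CPM (128 UMIs), 18.7 (136), 59.4 (590) and 39.8 (475) in these sections, with the facial section the higher of the 2 at each stage. Mcpt4 gave the most UMIs in both unwounded sections, although in oral mucosa its interval overlapped that of Cma1. In facial skin at day 4 the intervals overlapped too, at 57.1 to 67.0 CPM for Cma1 and 54.7 to 64.4 CPM for Mcpt4.

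Tpsb2, a tryptase gene, had 26.3 CPM (79 UMIs) in day 4 oral mucosa, 8.65 (63) in unwounded oral mucosa, 22.4 (223) in facial skin at day 4 and 5.61 (67) in unwounded facial skin. Tpsb2 and Tpsab1 are close copies, and how reads that fit both were counted is not given in the sources used here, so both levels are uncertain. Cpa3, whose product trims peptides after chymase has cut them, had 29.3 CPM (88 UMIs), 4.39 (32), 23.7 (235) and 8.71 (104) in the same order. For both genes the day 4 sections lay above the unwounded ones, and the intervals of the 2 day 4 sections overlapped.

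The receptors were sparse. Kit had 7.32 CPM (22 UMIs) in day 4 oral mucosa, 1.78 (13) in unwounded oral mucosa, 7.25 (72) in facial skin at day 4 and 4.69 (56) in unwounded facial skin. Ms4a2 had 2 UMIs in day 4 oral mucosa, 3 in unwounded oral mucosa, 19 in facial skin at day 4 and 7 in unwounded facial skin. Fcer1a had 10 UMIs in each day 4 section, against 0 in unwounded oral mucosa and 3 in unwounded facial skin. At that count of 0 the 95% interval reached 0.506 CPM. The floor used for ratios, 3 UMIs, was 0.412 CPM in that section.

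**Figure D1:**
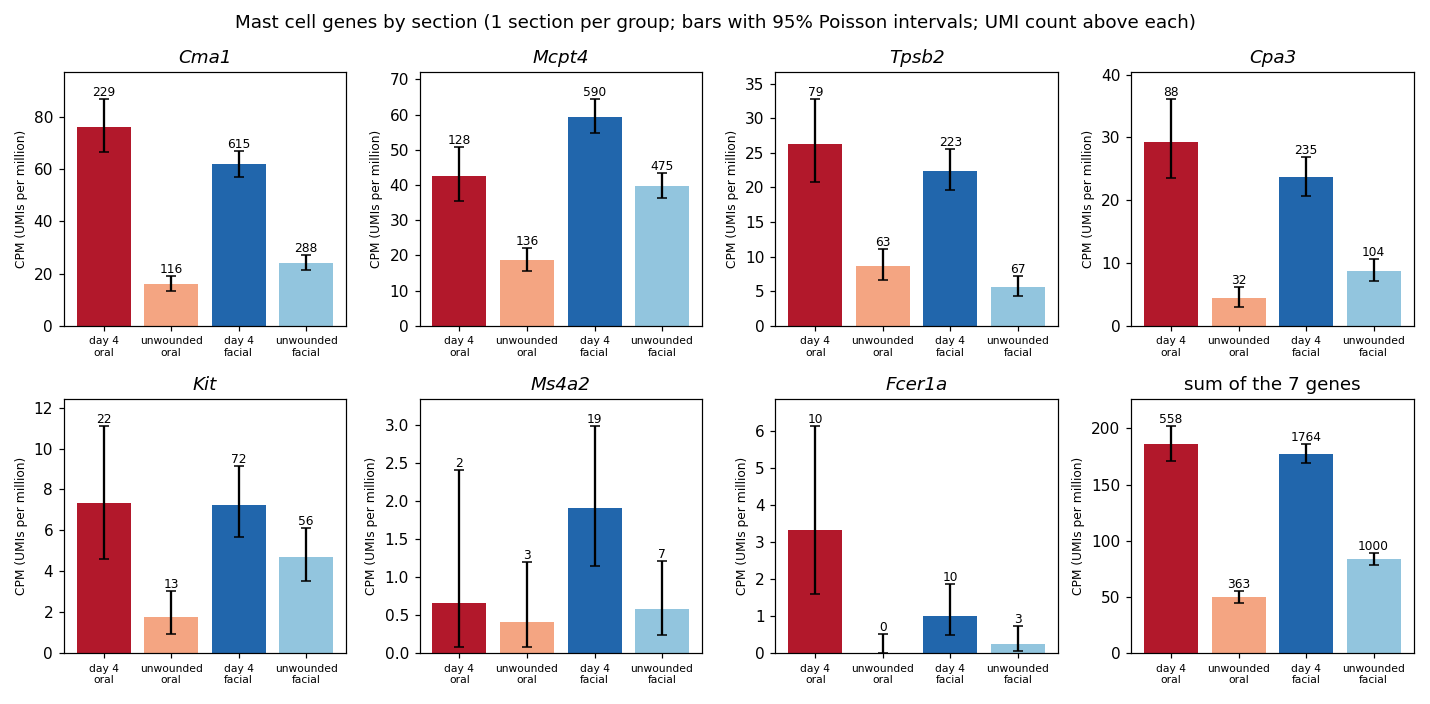
Bars give CPM of each gene and of their sum in each section, with 95% Poisson intervals and the UMI count above each bar. The day 4 bars of Cma1, Mcpt4, Tpsb2 and Cpa3 lie above the unwounded bars of the same tissue with no overlap of intervals, while Ms4a2 and Fcer1a rest on at most 19 UMIs.

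The first comparison asked how these transcripts stood in the wounded oral mucosa. A member was counted where both sections together held at least 20 UMIs, and a call of higher or lower needed a CPM ratio of 1.5-fold or more together with Poisson intervals that stood apart. All 5 members counted were higher at day 4. Among the 12544 genes counted in this pair, 20.6% were called higher and 3.56% lower. The ratios were 4.79-fold for Cma1, 2.28-fold for Mcpt4, 3.04-fold for Tpsb2, 6.67-fold for Cpa3 and 4.10-fold for Kit. Fcer1a, too sparse to be counted, was 8.08-fold higher against a floor of 3 UMIs in the unwounded section. The exact interval of its log2 ratio had a lower bound of 2.44. Summed, the log2 ratio was 1.90 (1.71 to 2.09), and all 5 stayed higher with TMM scaling, where 10.3% of genes were higher and 9.67% lower.

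This difference rested on 1 area of the day 4 section. Each section was cut into 4 parts at the median row and column of its spots, and the lower left part of day 4 oral mucosa (part 3 of the cut) held 482 of its 558 member UMIs. Without that part the summed log2 ratio was -0.10, with 1 member higher (Kit) and 1 lower (Mcpt4), while Cma1 was at -0.05 and Tpsb2 at -0.01. It was 0.55 over spots with under 1% skeletal muscle markers and 0.46 per fibroblast marker UMI, a scale on which Mcpt4 was at -0.24.

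In facial skin 3 of the 6 members counted were higher at day 4 than in the section labelled unwounded, against 6.09% of 14231 genes called higher, and none was lower, against 8.59%. Those 3 were Tpsb2 at 4.00-fold, Cpa3 at 2.72-fold and Cma1 at 2.57-fold. Mcpt4 was at 1.49-fold, just under the threshold, with intervals apart. Kit at 1.55-fold and Ms4a2 at 3.26-fold had overlapping intervals. The summed log2 ratio was 1.08 (0.97 to 1.20), and it lay between 0.67 and 1.94 when 1 part of either section was left out, the highest without the upper left part of the unwounded section, which held 558 of its 1000 member UMIs. All 6 members were higher without that part, and likewise without the lower right part of the day 4 section. The summed log2 ratio was 0.63 per fibroblast marker UMI and 0.95 without the spots of the unwounded section in which neutrophil markers reached 1%.

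Set side by side, the day 4 over unwounded ratio was larger in oral mucosa than in facial skin for Cma1, Mcpt4, Cpa3 and Kit. On the log2 scale the oral ratio exceeded the facial one by 0.90 (0.52 to 1.28) for Cma1, 0.61 (0.22 to 1.002) for Mcpt4, 1.296 (0.62 to 1.97) for Cpa3 and 1.41 (0.30 to 2.52) for Kit. For Tpsb2 the difference was -0.40 (-1.01 to 0.22). The order rested on the lower left part of the day 4 oral section: without it the oral ratios were -0.05 for Cma1, -1.12 for Mcpt4 and 0.33 for Cpa3, below the facial ones of 1.36, 0.58 and 1.44, while Kit was at 2.04, against 0.63. The summed ratio also turned round per fibroblast marker UMI (0.46 in oral mucosa and 0.63 in facial skin) and in spots with under 1% muscle markers (0.55 and 0.96). Whether the wound response differs between the tissues was not tested.

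Between the unwounded sections, 4 of the 5 members counted were lower in oral mucosa than in facial skin. So were 59.7% of the 14026 genes counted, with 10.1% higher, so the members' share is to be read against a section whose CPM were low for most genes. Kit was 2.63-fold lower, Mcpt4 2.13-fold, Cpa3 1.98-fold and Cma1 1.51-fold. Tpsb2 was the exception at 1.54-fold higher, with overlapping intervals. With TMM scaling, which sets most genes level between sections, the median of all genes moved to -0.08 from -0.47 and the calls to 20.3% higher and 27.0% lower. The summed log2 ratio of -0.75 then became 0.015, and per fibroblast marker UMI it became 1.07. It was 0.10 without the upper left part of unwounded facial skin, so the direction between the unwounded tissues depended on the scale and on 1 area.

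Between the day 4 sections no member was called higher or lower in oral mucosa than in facial skin, of 7 counted, where 11.5% of the 13633 genes counted were higher and 35.5% lower. The log2 ratios were 0.30 (0.07 to 0.52) for Cma1, -0.48 (-0.77 to -0.20) for Mcpt4, 0.23 (-0.16 to 0.60) for Tpsb2, 0.31 (-0.06 to 0.67) for Cpa3 and 0.015 (-0.74 to 0.72) for Kit. Ms4a2 at -1.52 (-4.67 to 0.53) and Fcer1a at 1.73 (0.30 to 3.15) rest on few UMIs. With TMM scaling, which gave 17.2% of genes higher and 18.6% lower, 4 members were higher in oral mucosa, and without the lower left part of the oral section 4 were lower, with a summed log2 ratio of -1.93.

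Ratios between 2 members within a section do not depend on the section's total or on its scaling. Cma1 per Mcpt4 was 1.79 (1.43 to 2.24) in day 4 oral mucosa, 0.853 (0.660 to 1.10) in unwounded oral mucosa, 1.04 (0.930 to 1.17) in facial skin at day 4 and 0.606 (0.522 to 0.703) in unwounded facial skin. Both tissues had more Cma1 for each Mcpt4 UMI at day 4 than unwounded, and oral mucosa had more than facial skin at day 4, with intervals apart in each case. The 2 unwounded intervals overlapped, although the log2 ratio of oral over facial was 0.49 (0.08 to 0.91), above 0. On the log2 scale the ratio was higher at day 4 by 1.07 (0.59 to 1.54) in oral mucosa and by 0.78 (0.51 to 1.05) in facial skin.

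Cpa3 per Mcpt4 differed in the same direction. It was 0.688 (0.518 to 0.909) in day 4 oral mucosa, 0.235 (0.155 to 0.348) in unwounded oral mucosa, 0.398 (0.341 to 0.464) in facial skin at day 4 and 0.219 (0.175 to 0.271) in unwounded facial skin. Cpa3 per Cma1, by contrast, was 0.384, 0.276, 0.382 and 0.361 in these sections, with intervals that all overlapped (lowest bound 0.180, highest 0.493). Over whole sections the proportion of Mcpt4 to these 2 proteases thus differed by more than counting error, while that of Cpa3 to Cma1 did not. The unwounded oral value pools 2 unlike parts: Cpa3 per Cma1 was 0.151 (0.0620 to 0.320) in its lower left part, apart from the day 4 facial interval (0.327 to 0.445), and 0.381 (0.228 to 0.618) in its lower right part.

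Tpsb2 per Mcpt4 was 0.617 (0.460 to 0.823) in day 4 oral mucosa, 0.463 (0.338 to 0.629) in unwounded oral mucosa, 0.378 (0.323 to 0.442) in facial skin at day 4 and 0.141 (0.108 to 0.182) in unwounded facial skin. The unwounded facial section stood below the other 3. Of these, the 2 day 4 intervals stood apart, with a log2 ratio of oral over facial of 0.71 (0.25 to 1.17). The unwounded oral interval overlapped both. Tpsb2 per Cpa3 was highest in unwounded oral mucosa, at 1.97 (1.27 to 3.11), against 0.898 (0.654 to 1.23) in day 4 oral mucosa. Without the lower left part of the unwounded section it was 1.25 (0.706 to 2.23), which overlaps the day 4 interval.

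**Figure D2:**
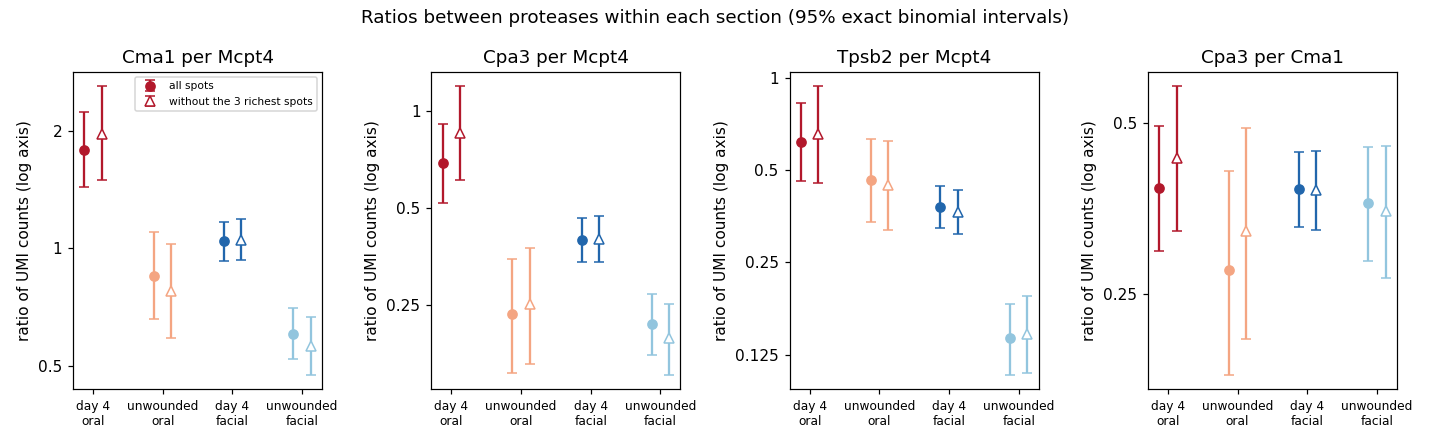
Ratios of UMI counts between 2 proteases in each section on a log axis, with 95% exact intervals, for all spots (filled circles) and without the 3 spots richest in the 7 genes (open triangles). Cma1 per Mcpt4 runs between 0.606 in unwounded facial skin and 1.79 in day 4 oral mucosa, while Cpa3 per Cma1 overlaps across the 4 sections.

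The ratios were also taken over smaller areas. Without the 3 spots richest in members, Cma1 per Mcpt4 was 1.963 in day 4 oral mucosa, 0.780 in unwounded oral mucosa, 1.05 in facial skin at day 4 and 0.564 in unwounded facial skin. In day 4 oral mucosa it was 1.79 in the lower left part alone and 1.79 in the other parts together, though the second value rests on 25 and 14 UMIs (0.893 to 3.72). Among the parts of unwounded facial skin it lay between 0.353 and 0.713, and among those of day 4 facial skin between 0.872 and 1.24. In unwounded oral mucosa the 2 parts that held member UMIs gave 1.08 (0.720 to 1.63) and 0.724 (0.515 to 1.01).

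Member UMIs were concentrated in few spots, most of all in day 4 oral mucosa. The richest spot of that section held 72 of the 558 UMIs (12.9%), against 16 of 363 in unwounded oral mucosa (4.41%). In facial skin the richest spot held 79 of 1764 (4.48%) at day 4 and 87 of 1000 (8.70%) unwounded. The number of spots that together held 50% of the member UMIs was 10 in day 4 oral mucosa, 26 in unwounded oral mucosa, 82 in facial skin at day 4 and 29 in unwounded facial skin.

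In day 4 oral mucosa the richest spots lay beside each other. Its 3 richest spots, with 72, 56 and 41 UMIs, were neighbours on the array and carried Cma1 (30, 19 and 21 UMIs), Mcpt4 (18, 20 and 9), Tpsb2 (12, 9 and 5) and Cpa3 (11, 6 and 2) together. Spots with at least 5 member UMIs that touched each other formed a group of 13 spots there, which held 278 UMIs, or 49.8% of all member UMIs and 4.65% of the section's UMIs. Its summed level was 1990 CPM, and it carried 5.81% skeletal muscle, 2.98% keratinocyte, 0.457% fibroblast and 0.0193% neutrophil markers. The 15 such spots of unwounded oral mucosa fell into 11 groups, 8 of them single spots, and its 2 upper parts, where most of the shallow spots lay, held no member UMI. In facial skin the richest connected group held 22 spots and 21.7% of member UMIs at day 4, and 18 spots and 28.3% unwounded.

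**Figure D3:**
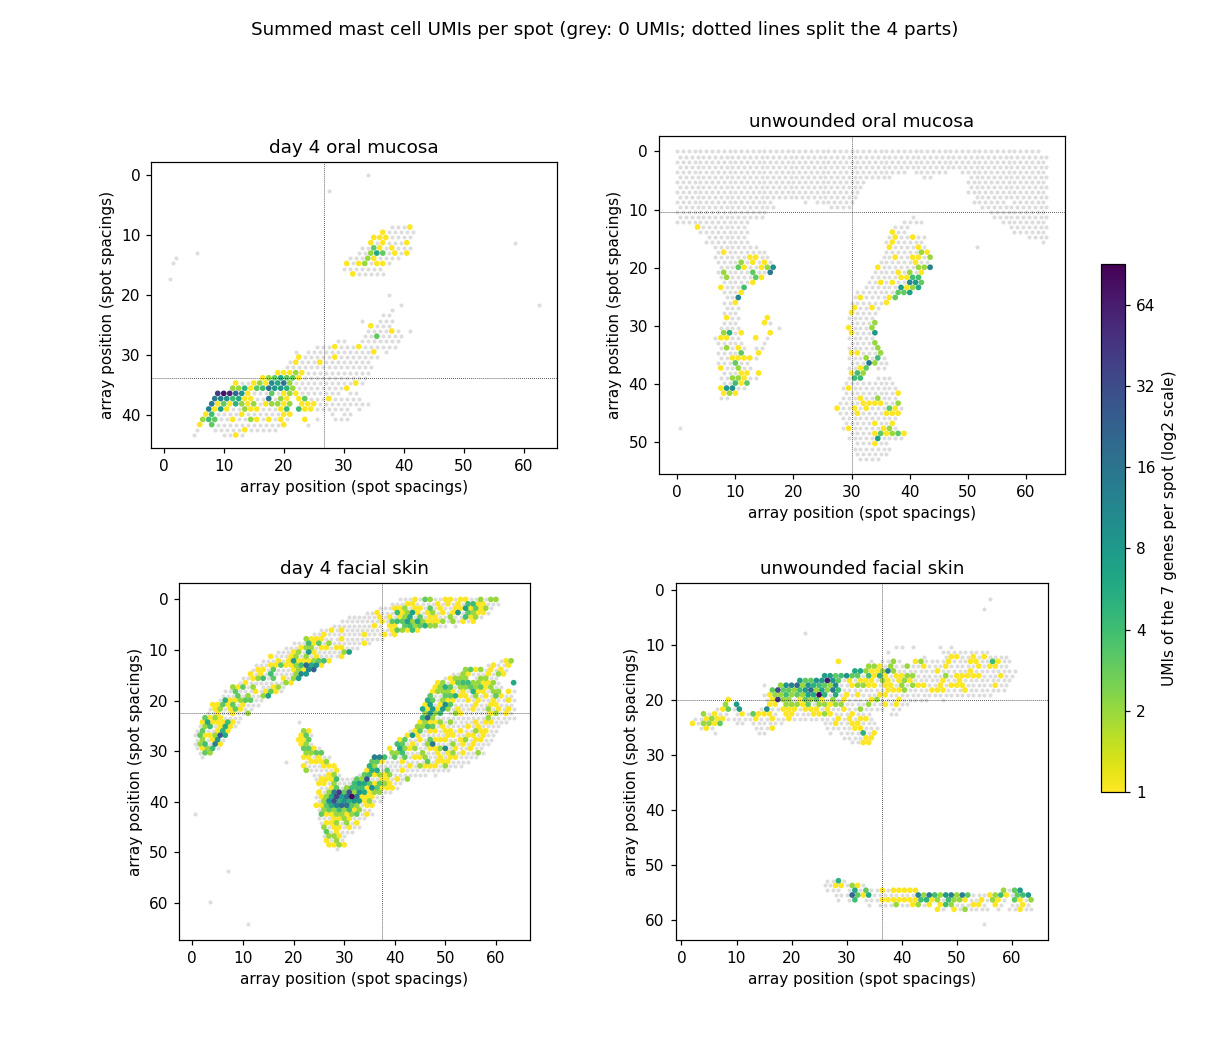
Each point is a spot at its array position, coloured by the summed UMIs of the 7 genes on a log2 scale, with spots at 0 in grey and dotted lines at the medians that cut the 4 parts. Day 4 oral mucosa shows a dark group in its lower left part, which holds 482 of 558 UMIs, while the dark spots of day 4 facial skin spread over several pieces.

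The neighbourhood of a spot carried the same signal. Around spots with a member UMI, the neighbouring spots stood at 401 CPM in day 4 oral mucosa, against 50.8 CPM around spots without one. The same 2 values were 85.0 and 30.4 CPM in unwounded oral mucosa, 241 and 91.1 CPM in facial skin at day 4 and 132 and 35.9 CPM in unwounded facial skin. Deeper spots more often have a UMI, and no allowance was made for that here.

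Depth matters for the share of spots with a member UMI. Before any correction the share was 31.9% in day 4 oral mucosa, 12.03% in unwounded oral mucosa, 53.6% in facial skin at day 4 and 44.7% in unwounded facial skin. With every spot of at least 1000 UMIs thinned to 1000, it was 12.9% (9.62 to 16.8) of 365 spots, 6.88% (4.87 to 9.40) of 523, 21.4% (19.0 to 24.0) of 1096 and 8.27% (6.27 to 10.7) of 653. This left out 65, 765, 45 and 18 shallower spots. Day 4 facial skin had the widest spread of mast cell transcripts after thinning, although its summed CPM was close to that of day 4 oral mucosa.

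Spots with one chymase more often held the other. In day 4 oral mucosa Cma1 stood at 359 CPM in the 47 spots with an Mcpt4 UMI, against 26.2 CPM in the 318 without (spots of at least 1000 UMIs). Thinned to 1000 UMIs, Cma1 was seen in 6 of the 14 spots with Mcpt4 (42.9%) and in 23 of the 351 without (6.55%). In day 4 facial skin the same shares were 25% of 92 spots and 6.57% of 1004, and in unwounded facial skin 15% of 20 and 1.74% of 633. Unwounded oral mucosa had 1 of 11 and 15 of 512, too few to order. Across spots, Spearman's rho between Cma1 and Mcpt4 was 0.407 over 365 spots, 0.296 over 523, 0.270 over 1096 and 0.319 over 653 in day 4 oral, unwounded oral, day 4 facial and unwounded facial sections, values that share each spot's depth.

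The few UMIs of the IgE receptor chains lay mostly in spots with a protease UMI. In day 4 facial skin all 18 Ms4a2 UMIs found in spots of at least 1000 UMIs lay in the 579 spots with a protease UMI, and none in the 517 without. In day 4 oral mucosa 9 of 10 Fcer1a UMIs lay in the 122 spots with a protease UMI (7.53 CPM, against 0.562 CPM in the 243 spots without). Fcer1a in day 4 facial skin had 7 UMIs in spots with a protease UMI and 2 in those without (log2 ratio of CPM 1.34, -1.05 to 4.64). Ms4a2 in unwounded facial skin had 5 and 2 (1.55, -1.07 to 4.94). Neither was beyond counting error. Deeper spots more often have a protease UMI, so the counts alone do not allow for depth. Over so few UMIs this is a description only.

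Kit marks melanocytes as well as mast cells, and the sections differed in melanocyte markers. Summed over 8 such markers there were 1 UMI in each oral section, 1481 in facial skin at day 4 and 774 in unwounded facial skin, with 7 of 8 markers at 0 in each oral section. In day 4 facial skin 46 of the 64 spots with a Kit UMI held a protease UMI and 43 a melanocyte marker. Among them 13 held a melanocyte marker and no protease. In unwounded facial skin 33 of 51 held a protease, 33 a melanocyte marker and 7 a melanocyte marker alone. Of all 1096 day 4 facial spots of at least 1000 UMIs, 579 held a protease UMI and 590 a melanocyte marker. Spots without Kit thus often held them too, and these counts make no allowance for depth. By protease, Kit was at 9.22 CPM in day 4 facial spots with such a UMI, against 4.57 CPM without. In unwounded facial skin these values were 6.54 and 3.11 CPM. Kit stood at 9.15 CPM in day 4 facial spots with a melanocyte marker, against 5.05 CPM without, and at 7.44 against 2.64 CPM in unwounded facial skin. How much of the skin's Kit came from melanocytes was not tested, and in oral mucosa those markers were at or near 0. In day 4 oral mucosa 9 of the 20 spots with a Kit UMI held a protease UMI, and 11 held neither that nor a melanocyte marker. In unwounded oral mucosa these were 8 and 5 of 13. At day 4 oral Kit was at 9.20 CPM with a protease UMI, against 6.18 CPM without (log2 ratio 0.57, -0.77 to 1.92). The unwounded oral values were 3.93 and 0.964 CPM (2.03, 0.23 to 3.98). Which cells the oral Kit came from was not tested.

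Spots rich in other cell types were then compared with the rest of the section, as a description of where the transcripts lay. The 25% of spots with the highest share of fibroblast markers (of those with at least 1000 UMIs) had more member UMIs relative to all UMIs than the others in all 4 sections. They stood at 523 against 141 CPM in day 4 oral mucosa, 204 against 19.98 in unwounded oral mucosa, 421 against 140 in facial skin at day 4 and 246 against 33.0 in unwounded facial skin. Without the 3 richest spots the day 4 oral values were 327 and 104 CPM. Macrophage-rich spots were also higher in all 4, with log2 ratios of 1.26, 3.31, 2.23 and 2.91 in the same order. In day 4 oral mucosa that call did not hold in the top 10% of spots, where the log2 ratio was -1.36. Spots rich in dendritic, endothelial or pericyte markers were higher too, with log2 ratios between 0.52 (endothelial, day 4 oral mucosa) and 2.42 (dendritic, unwounded facial skin). The endothelial call in day 4 oral mucosa was lost in the top 10% of spots, at 0.028 (-0.53 to 0.54). Without the 3 richest spots of that section the log2 ratio was 1.203 for endothelial spots and 1.09 for dendritic ones, the second against 2.17 with them. Across day 4 oral spots Spearman's rho with the summed members was near 0 for these markers. It was -0.034 for macrophage, 0.039 for dendritic, 0.007 for endothelial and -0.062 for pericyte markers, against 0.202 to 0.455 in the other sections.

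Keratinocyte-rich spots were low in skin, at 40.2 CPM against 306 in the other spots of day 4 facial skin and 22.5 against 107 in unwounded facial skin. The same comparison in unwounded oral mucosa gave 33.3 against 56.5 CPM. Day 4 oral mucosa had the opposite order, at 232 against 159 CPM, but without its 3 richest spots the values were 81.9 and 159 CPM. Neutrophil-rich spots held few member UMIs in both sections in which neutrophil markers were abundant, at 21.9 against 236 CPM in day 4 oral mucosa and 21.4 against 103 CPM in unwounded facial skin. Adipocyte-rich spots were lower than the others in day 4 oral mucosa, at 139 against 199 CPM (log2 ratio -0.52, -0.86 to -0.18), a ratio that was 0.12 without the 3 richest spots. They were higher in the other 3 sections, at 94.5 against 37.7 CPM in unwounded oral mucosa, 770 against 101 in day 4 facial skin and 212 against 46.3 in unwounded facial skin. Muscle-rich spots of day 4 oral mucosa were lower than the others, at 140 against 210 CPM (log2 ratio -0.59, -0.88 to -0.31). With the 3 richest spots left out they stood at 140 against 126 CPM (log2 ratio 0.15, -0.16 to 0.45). Those of unwounded oral mucosa, likewise without the 3 richest spots, stood at 23.4 against 52.0 CPM. In facial skin, again without the 3 richest spots, they stood at 484 against 110 CPM at day 4 and 72.6 against 67.3 CPM unwounded. Across day 4 oral spots Spearman's rho with the summed members was 0.289 for muscle and 0.160 for fibroblast markers. In unwounded oral mucosa it was -0.181 and 0.321.

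**Figure D4:**
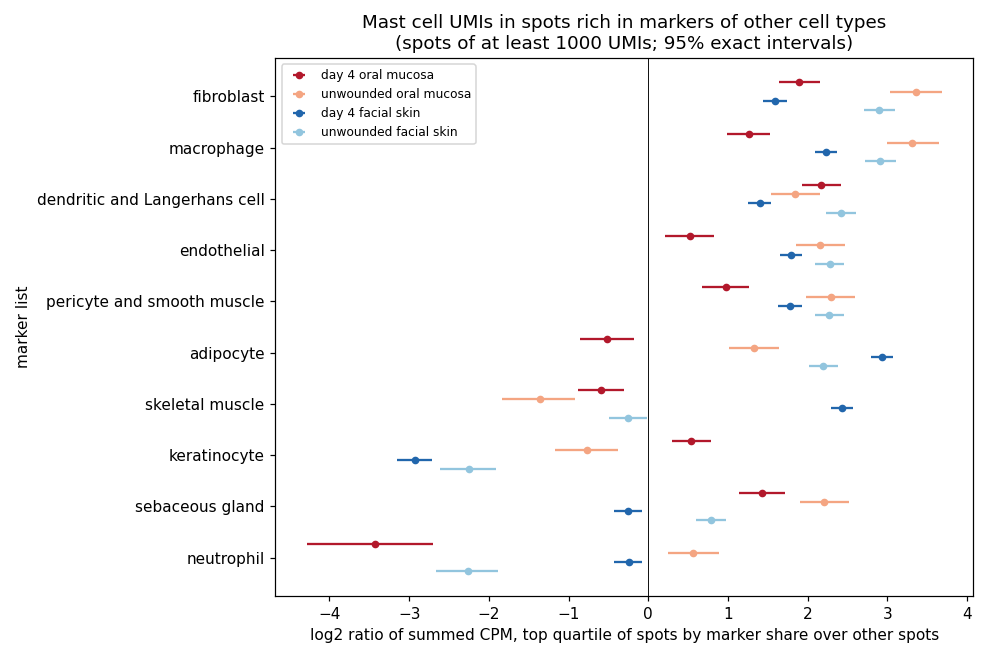
Points give the log2 ratio of the summed CPM of the 7 genes in the 25% of spots richest in each marker list over the other spots, with 95% exact intervals, in spots of at least 1000 UMIs. Fibroblast and macrophage rows lie to the right of 0 in all 4 sections, and neutrophil-rich spots lie far to the left in day 4 oral mucosa (-3.43) and unwounded facial skin (-2.26).

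Distance from the epithelium gave the same picture in skin. In day 4 facial skin the summed level was 40.2 CPM in keratinocyte-rich spots and 77.3, 268, 639 and 564 CPM at 1, 2, 3 and 4 steps on the array, and 531 CPM farther out. In unwounded facial skin it was 22.5, 38.1, 41.9, 165 and 116 CPM at 0 to 4 steps and 197 CPM farther out, and in unwounded oral mucosa 33.3, 35.2, 36.7, 67.4 and 75.6 CPM and then 68.8 CPM. Day 4 oral mucosa ran the other way, with 232, 333, 195, 212 and 75.3 CPM at 0 to 4 steps and 62.9 CPM farther out. Without the 3 richest spots its value at 0 steps was 81.9 CPM, and the peak of 333 CPM at 1 step remained. The same omission lowered the value at 3 steps to 63.8 CPM in unwounded facial skin, and the values at 3 and 4 steps to 41.3 and 46.0 CPM in unwounded oral mucosa.

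**Figure D5:**
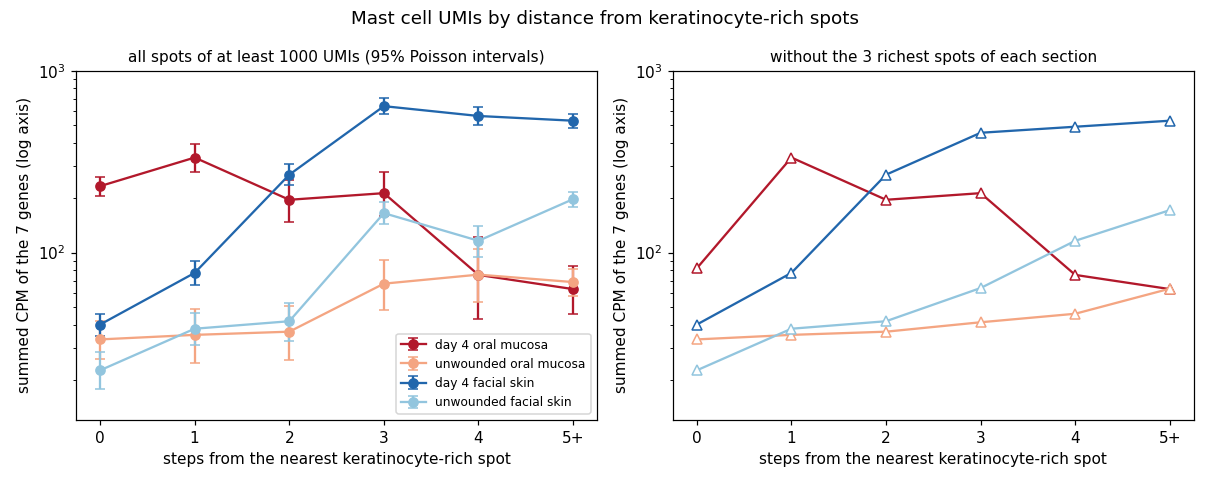
Summed CPM of the 7 genes (log axis) by steps from the nearest keratinocyte-rich spot, with 95% Poisson intervals for all spots of at least 1000 UMIs on the left and without the 3 richest spots on the right. Both facial sections and unwounded oral mucosa are lowest at 0 steps, while day 4 oral mucosa peaks at 1 step, at 333 CPM.

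The 10 genes whose level across spots was most like the summed members were ranked by Pearson's r of log values, averaged over the sections in which a gene was abundant enough, among 13061 genes. They were C4b (0.447), C3 (0.424), Col3a1 (0.419), Dcn (0.411), Inmt (0.394, in 2 sections), Col1a2 (0.386), Cfd (0.386, in 3), Selenop (0.377), Ccdc80 (0.375) and C1s1 (0.374). C4b, C3, Cfd and C1s1 encode complement components, and Col3a1, Col1a2 and Dcn encode matrix components. The values are low in these sparse counts, and each is over the spots of single sections that share depth.

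Other genes known from mast cells, from a list of 33, gave a different picture in the 2 tissues. In oral mucosa 13 of the 19 counted were higher at day 4 and none was lower, beside 20.6% and 3.56% of all genes. The largest ratios were those of Il1rl1, the interleukin-33 receptor (32.6 CPM at day 4, against 1.10 CPM unwounded), Hdc, which makes histamine (11.98 against 0.686 CPM), Tpsab1, the tryptase copy beside Tpsb2 (5.33 against 0.549 CPM), and Srgn, the core protein of granule proteoglycan (148 against 19.2 CPM). The median log2 ratio with 10 CPM added was 0.54 over the counted members of the list, against 0.17 over all genes.

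In facial skin 4 of 24 were higher at day 4 and 5 were lower, beside 6.09% and 8.59% of all genes. Tpsab1 was 12.4-fold higher against a floor of 3 UMIs (31 UMIs at day 4, against 0 unwounded). The mast cell receptors Mrgprb1 (5.54 against 1.76 CPM) and Mrgprb2 (5.84 against 2.09 CPM) and the transcription factor Gata2 (8.56 against 4.44 CPM) were higher too. Hdc (9.06 at day 4, against 71.5 CPM unwounded) and Srgn (54.7 against 350 CPM) led those that were lower. Both genes are also expressed by neutrophils: in unwounded facial skin Hdc stood at 220 CPM in neutrophil-rich spots, against 26.0 CPM in the others, and at 48.5 CPM in spots with a protease UMI, against 91.2 CPM without. Mrgprb1, in contrast, stood at 3.27 CPM in spots with a protease UMI, against 0.467 CPM without.

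Spots of the wounded oral section were divided in the same way. Il1rl1 stood at 16.7 CPM in day 4 oral spots with a protease UMI, against 43.3 CPM without, and at 93.3 CPM in neutrophil-rich spots, against 14.4 CPM in the others. Srgn stood at 72.8 CPM with a protease UMI, against 201 CPM without. Hdc, Alox5ap, Csf2rb, Csf2rb2, Fcer1g and Hs3st1 were also lower with a protease UMI, beyond counting error. Ltc4s went the other way, at 19.2 CPM with a protease UMI, against 6.75 CPM without (log2 ratio 1.51, 0.45 to 2.65). Its log2 ratio in neutrophil-rich spots over the others was -1.68. In day 4 facial skin Il1rl1 was higher with a protease UMI, at 8.53 against 4.81 CPM, and in neutrophil-rich spots (log2 ratio 1.56). How much of the list's difference came from other cells was not tested.

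Between tissues at day 4, 6 of 22 genes of that list were higher and 3 lower in oral mucosa than in facial skin, beside 11.5% and 35.5% of all genes. Mrgprb2, the receptor for cationic peptides on connective tissue mast cells, had the lowest ratio, with 2 UMIs in day 4 oral mucosa, against 58 in day 4 facial skin (8.77-fold lower, log2 interval -6.21 to -1.21). It had no UMI in unwounded oral mucosa, against 25 in unwounded facial skin (5.08-fold lower with a floor of 3 UMIs). Between the unwounded tissues 14 of 22 were lower in oral mucosa and none higher, beside 59.7% of all genes lower and 10.1% higher, so the count lower is near the background, with Hdc at 0.686 against 71.5 CPM and Hpgds, a prostaglandin D synthase gene, at 0.824 against 19.8 CPM. Of the mucosal mast cell proteases, Mcpt1 had no UMI in any section, and Mcpt2 had 12 in facial skin at day 4 and none in the others. Of 5 basophil markers, which share the IgE receptor with mast cells, there were at most 21 UMIs in a section, with Mcpt8 at 4, 0, 6 and 7 in day 4 oral, unwounded oral, day 4 facial and unwounded facial sections.

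Factors that act on mast cells were followed from a list of 13. In oral mucosa 5 of the 8 counted were higher at day 4 (20.6% of all genes were), among them the alarmin Il33 (118 against 40.5 CPM), Ccl2 (60.2 against 18.5 CPM) and Il6 (27 UMIs against 0). In facial skin 1 of 10 was higher (6.09% of all genes were), the Kit ligand gene Kitl (36.5 CPM at day 4, against 18.8 CPM unwounded). Another 5 were lower (8.59% of all genes were), among them Il6 (0.906 against 6.78 CPM) and Ccl2 (25.5 against 59.3 CPM). Of the genes that relay signals from the IgE receptor and Kit, 7 of 18 were higher in oral mucosa at day 4 and none lower, beside 20.6% and 3.56% of all genes. In facial skin none of 20 was higher and 9 were lower, beside 6.09% and 8.59% of all genes. Most of these, such as Vav1 and Lcp2, act in many immune cells.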

How the data were processed

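The authors deposited, for each of the 4 sections, UMI counts of every gene in every spot, not normalized. The file headers give Space Ranger 1.3.1, and Seurat and mm10 are named in the submitters' processing notes; the sources used here do not give the annotation release. The members and lists were chosen with earlier results of these data known. The text names all 7 members, up to 4 genes of each other list per comparison by absolute log2 ratio (among those counted), and the 10 genes most alike across spots. Mcpt1, Mcpt2, Mcpt8, Mrgprb2 and Gata2 in facial skin, Kitl, and the genes compared between spots were named after their values were seen. The values of 1 listed gene are not reported here.

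UMIs were summed per section and scaled to CPM, with exact 95% Poisson intervals and exact conditional intervals of ratios. Shares have exact Clopper-Pearson intervals. These cover counting error and leave out variation between mice and sections. No test was run. Spots under 1000 UMIs were left out of spot comparisons only. The call rule was tested on simulated data. Alternatives were TMM scaling (edgeR 4.0.16 in R 4.3.3), totals that omit mitochondrial genes and the top 50 genes, mean spot CPM, spots of at least 1000 UMIs, spots with under 1% muscle markers, fibroblast marker UMIs as the total, a minimum of 100 UMIs or none, thinning to 2000 UMIs, the top 10% of spots, and leaving out 1 part. Dropping the 3 richest spots of each section, or the neutrophil-rich spots of unwounded facial skin, was added after seeing the data. Sequences came from RefSeq tables of GRCm38.p6. Python 3.11.15, numpy 2.4.6 and scipy 1.17.1 were used.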

Additional observations from a re-analysis of the deposited data

Results flagged for a closer look

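For 3 members the log2 ratio of oral mucosa over facial skin was below 0 between the unwounded sections and not below 0 between the day 4 sections, each with 1 section per group, and this difference was not tested. It was 0.30 (0.07 to 0.52) at day 4 and -0.60 unwounded for Cma1, 0.31 (-0.06 to 0.67) and -0.99 for Cpa3, and 0.015 (-0.74 to 0.72) and -1.39 for Kit, so at day 4 Cpa3 and Kit had no direction beyond counting error. The unwounded values turned with the scale: Cma1 was at 0.16 with TMM scaling, and Cma1, Cpa3 and Kit were at 1.22, 0.83 and 0.42 per fibroblast marker UMI.

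Among the other mast cell genes, 5 were called higher at day 4 in oral mucosa and lower at day 4 in facial skin. The log2 ratios of day 4 over unwounded in oral mucosa and in facial skin were 4.13 and -2.98 for Hdc, 2.95 and -2.68 for Srgn, 2.94 and -0.88 for Csf2rb, 2.42 and -1.18 for Fcer1g, and 1.06 and -0.88 for Hs3st1. The difference was not tested. Neutrophil markers moved the same way, at 0.394% of UMIs at day 4 and 0.00328% unwounded in oral mucosa, and 0.0256% and 0.637% in facial skin, and their part in these values was not tested.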

How the results depend on the processing

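No paired analysis was possible because each group held 1 section. The summed log2 ratio of day 4 over unwounded oral mucosa (1.90) was 1.56 with TMM, 1.70 without mitochondrial and abundant genes, 2.55 as mean spot CPM, 0.46 per fibroblast UMI, 0.55 in muscle-poor spots, 1.56 without the 3 richest spots, and -0.10 to 2.59 leaving out 1 part, with 2 of its members higher per fibroblast UMI, 1 in muscle-poor spots and 1 to 5 (lower, 0 to 1) without 1 part. Mcpt4 turned to -0.24 per fibroblast UMI and -0.25 in muscle-poor spots. Without 1 part, Cma1 ran between -0.054 and 2.98, Mcpt4 between -1.12 and 1.92 and Tpsb2 between -0.0097 and 2.18, the lowest without part 3 of the day 4 section. In facial skin the ratio (1.08) was 0.63, 0.96, 1.98, 1.25 and 0.95 per fibroblast UMI, in muscle-poor spots, as mean spot CPM, without the 3 richest spots and without neutrophil-rich spots, and 0.67 to 1.94 (3 to 6 members higher) without 1 part. For unwounded oral over facial (-0.75) it was 0.015, -0.32, 1.07, -0.55 and -0.999 with TMM, without abundant genes, per fibroblast UMI, in muscle-poor spots and as mean spot CPM, and -1.17 to 0.10 without 1 part. Of its members 1, 1 and 4 were then higher with TMM, without abundant genes and per fibroblast UMI (0 to 1 without 1 part), and 0, 1, 0, 1 and 2 lower with TMM, without abundant genes, per fibroblast UMI, in muscle-poor spots and without the 3 richest spots (0 to 4 without 1 part). Cma1 turned to 0.16 with TMM, and Cma1, Mcpt4, Cpa3 and Kit to 1.22, 0.73, 0.83 and 0.42 per fibroblast UMI, and without 1 part Cma1 ran between -1.06 and 0.50 and Cpa3 between -1.77 and 0.10. For day 4 oral over facial (0.06) it was 0.43, 0.26, 0.90, -0.95, -0.43 and -0.32 with TMM, without abundant genes, per fibroblast UMI, in muscle-poor spots, as mean spot CPM and without the 3 richest spots, and -1.93 to 0.76 without 1 part. There 4 members were higher with TMM and 4 per fibroblast UMI (0 to 3 without 1 part), and 2 were lower in muscle-poor spots and 1 without the 3 richest spots (0 to 4 without 1 part). Thinned to 2000 UMIs, the share of spots was 19.0%, 11.9%, 28.5% and 13.1% in day 4 oral, unwounded oral, day 4 facial and unwounded facial sections. In day 4 oral mucosa the top 10% of macrophage and keratinocyte spots gave -1.36 and -2.72, and without the 3 richest spots keratinocyte, muscle and adipocyte spots gave -0.96, 0.15 and 0.12; muscle spots of unwounded facial skin gave 0.36 in the top 10% and 0.11 without the 3 richest spots. The cause of these shifts was not tested.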
